A study of Caenorhabditis elegans with 25 samples.

Results

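The insulin-like peptide genes of Caenorhabditis elegans were followed across 25 libraries of whole animals in which the neuropeptide gene flp-17 or the receptor gene egl-6 had been changed. Every gene named ins- with a number was taken from the table of raw counts, together with daf-28, which gave 40 genes out of 42532 in the table. Of these 40 genes, 24 had at least 10 counts in at least 5 libraries and were tested, among 14830 genes tested in all. The other 16 were too low to test.

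Poly(A) RNA of whole animals on day 1 of adulthood was sequenced from 5 genotypes with 5 samples each, and each sample held 500 to 600 animals. The flp-17oe egl-6(lof) strain (AEF237) carried egl-6(n4537) on chromosome X together with the array ssrEx1193, which holds flp-17 fused to GFP under the flp-17 promoter and a myo-3 promoter driving mCherry in muscle. The flp-17oe strain (AEF148) carried ssrEx1193 alone, as DNA outside the chromosomes that not every animal or cell inherits. The egl-6(lof) strain (AEF236) carried egl-6(n4537) and the flp-17(lof) strain (AEF243) carried flp-17(n4894) on chromosome IV. N2 was the wild type, and the 4 other strains had been outcrossed 6 times. Animals with the array were sorted by their fluorescence 24 hours before collection, whereas animals of the 3 strains without it were only washed and replated, and no strain carried the marker without flp-17. The array, the added flp-17 and the sorting therefore cannot be told apart in any comparison of array with non-array animals.

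Insulin-like peptides are secreted proteins that C. elegans makes from many more genes than a mammal does, in neurons, intestine and other tissues. Agonists such as DAF-28, INS-6, INS-4 and INS-7 activate the receptor DAF-2, whose kinase cascade keeps the transcription factor DAF-16 out of the nucleus, while INS-1 and INS-18 are known as antagonists. The pathway sets dauer entry, fat storage, stress resistance and lifespan. FLP-17 is an FMRFamide-like peptide of the gas-sensing BAG neurons, and EGL-6 is a G protein-coupled receptor for it.

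The libraries held 25164923 to 99717657 counts each, of which the 40 insulin-like genes took 577 to 2324, or 0.00200% to 0.00270%. The gene flp-17 averaged 230 ± 29 CPM (counts scaled by TMM library size) in flp-17oe egl-6(lof), 190 ± 27 in flp-17oe, 4.64 ± 0.241 in egl-6(lof), 0.31 ± 0.0632 in flp-17(lof) and 4.63 ± 0.454 in N2 (SD, n = 5 each), as the genotypes state. The gene egl-6 averaged 2.87 ± 0.389 CPM in flp-17oe egl-6(lof) and 2.81 ± 0.493 in egl-6(lof), against 6.04 ± 0.62 in N2. Replicate 1 of each genotype formed batch 1 and replicates 2 to 5 formed batch 2. The library flp-17(lof) replicate 1 stood apart, with the fewest counts and a scaling factor of 0.728. The labels do not say whether samples came from separate cultures, so p-values measure the spread between these samples.

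The 40 genes were spread over the chromosomes unevenly, with 16 on chromosome II and 10 on chromosome I (Ensembl annotation of WBcel235, the assembly also named ce11, in which 39 of the 40 genes matched). Gaps of at most 20 kb joined 26 of them into 7 clusters. The cluster with the most genes held 7 on chromosome I between positions 14012369 and 14037777, among them ins-26, ins-27 and ins-28. A cluster of 6 on chromosome II between 5988524 and 6011321 held the agonist genes ins-4 and ins-6. The genes ins-19 (II:3126037-3126441, minus strand) and ins-31 (II:3127041-3127831, plus strand) were neighbours on chromosome II, and ins-22 (III:10026289-10026686, plus strand) lay beside ins-23 on chromosome III. The gene ins-7 (IV:9682011-9682845, minus strand) lay next to ins-8, which was too low to test. The genes daf-28 (V:19815133-19816454, plus strand), ins-33 (I:13637845-13639311, minus strand) and ins-34 (IV:14106574-14107737, plus strand) had no insulin-like neighbour.

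Levels between genes were compared as CPM per kb of exon, averaged over all 25 libraries. The gene ins-17 was the most abundant member at 7.55 ± 1.07 CPM per kb (SD over 25 libraries), and it ranked 1 in all 5 genotypes. It was followed by ins-34 at 5.36 ± 0.818, ins-27 at 5.16 ± 0.962 and daf-28 at 3.46 ± 0.542 CPM per kb. Then came ins-26 at 2.7 ± 0.489 and ins-7 at 2.68 ± 1.41 CPM per kb. In this order the step between ins-17 and ins-34, that between ins-27 and daf-28, and that between daf-28 and ins-26 exceeded the larger SD of the 2 genes. All other neighbouring steps among the tested genes were within it, so ins-26, ins-7, ins-6, ins-28 and ins-18, at 2.14 to 2.7 CPM per kb, had no order beyond their spread. The gene ins-7 ranked 3 in flp-17oe egl-6(lof) and 9 in N2. The summed level of the 40 genes was 23.3 ± 1.47 CPM in flp-17oe egl-6(lof), 23.8 ± 0.963 in flp-17oe, 24.1 ± 2.66 in egl-6(lof), 23.9 ± 4.34 in flp-17(lof) and 23.1 ± 3.11 in N2, so that the genotype means differed by less than the SD of N2. In whole animals, fewer cells of a type and less RNA per cell cannot be told apart.

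**Figure D1:**
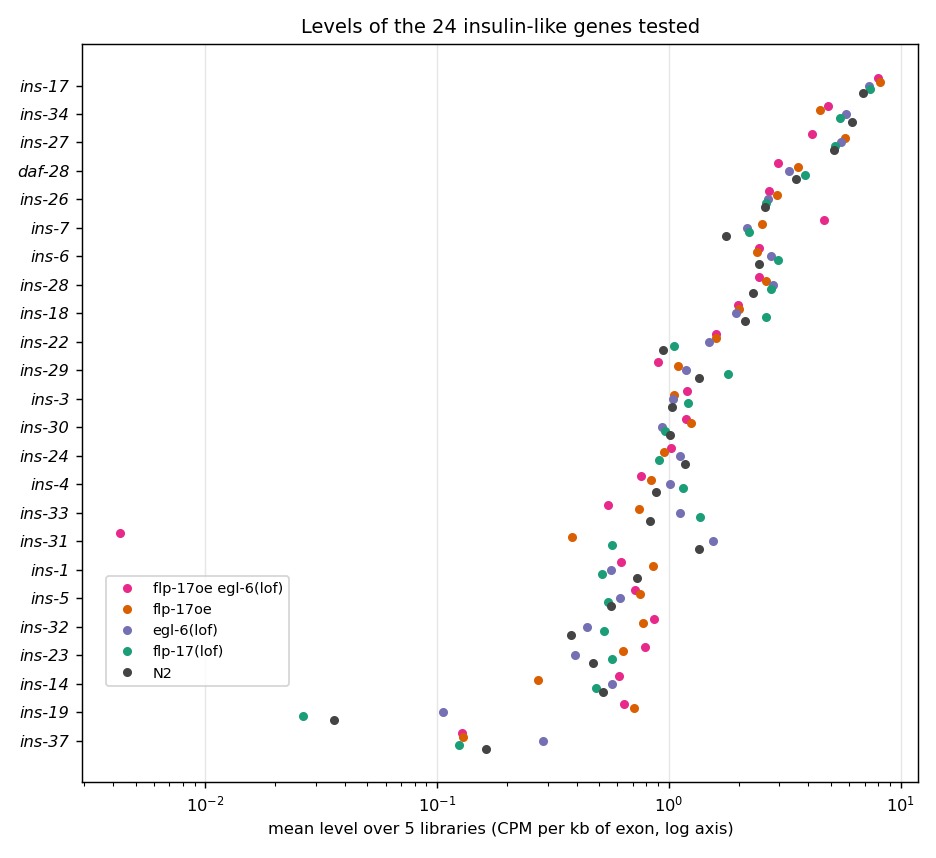
Mean level of the 24 tested insulin-like genes in each genotype, in CPM per kb of exon on a log axis; each point is the mean of 5 libraries. The gene ins-17 is highest in every genotype, and the genotypes separate most for ins-31, ins-19 and ins-7.

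The 16 genes too low to test were ins-2, ins-8, ins-9, ins-10, ins-11, ins-12, ins-13, ins-15, ins-16, ins-20, ins-21, ins-25, ins-35, ins-36, ins-38 and ins-39. Of these, ins-12 reached 20 counts in a library and had 173 over all 25. The lowest was ins-13, with 3 counts in all and 0 in 23 libraries. The gene ins-38, annotated as a pseudogene, had 5 counts in all. A fit without the count minimum, over 22410 genes, called none of the 16 in any of the 6 comparisons, and small changes in them were not detectable at these depths.

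Loss of flp-17 or of egl-6 alone left every tested insulin-like gene short of the threshold, an adjusted p under 0.05 in edgeR's quasi-likelihood test with Benjamini-Hochberg adjustment over all genes tested. In flp-17(lof) against N2, 0 of 24 members were called, beside 11 of all genes (0.0742%), and 1 member had an unadjusted p under 0.05, beside 2.63% of all genes. DESeq2 also called 0. That member was ins-33, at 1.20, 0.733, 0.632, 0.490 and 0.498 CPM in flp-17(lof) replicates 1 to 5, against 0.425, 0.521, 0.404, 0.436 and 0.385 CPM in N2. The highest value was in the library that stood apart, and the ranges overlapped (log2 change 0.63, SE 0.24, edgeR adjusted p 1). Changes of 22 of the 24 members lay within 0.5 of 0 on the log2 scale, and their median was 0.09, beside -0.00 over all genes.

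In egl-6(lof) against N2, edgeR and DESeq2 each called 0 of 24 members, beside 85 of all genes in edgeR (0.573%), and 1 member had an unadjusted p under 0.05, beside 7.67% of all genes. That was ins-22, at 0.651, 0.389, 0.486, 0.617 and 0.383 CPM in egl-6(lof), against 0.496, 0.444, 0.202, 0.189 and 0.262 CPM in N2. The ranges of ins-22 overlapped, with 3 N2 libraries below every egl-6(lof) library (log2 change 0.66, SE 0.22, edgeR adjusted p 0.214). The members' median log2 change was 0.10, beside -0.01 over all genes.

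**Figure D2:**
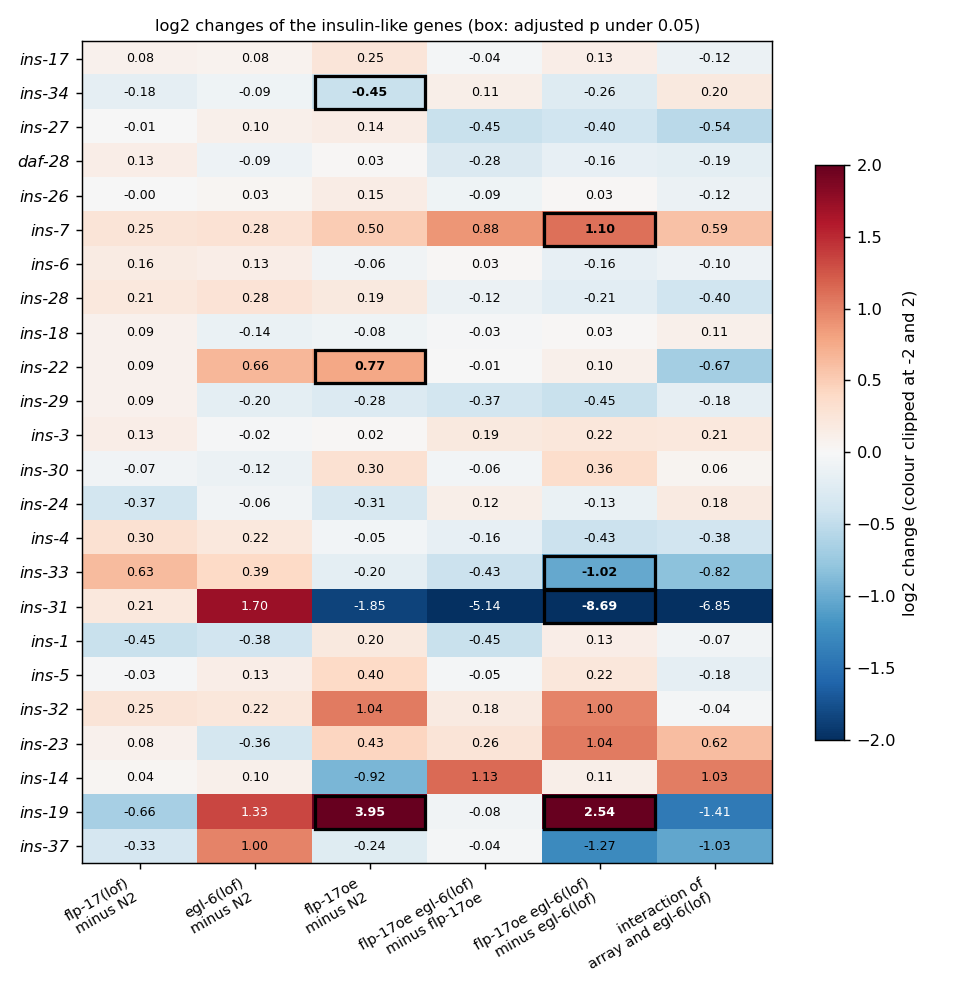
Log2 changes of the 24 tested insulin-like genes, ordered by level, in 5 comparisons of genotypes and the interaction; red is higher and blue is lower in the first-named genotype, with colour clipped at -2 and 2. Boxes mark an edgeR adjusted p under 0.05, which 3 genes reached in flp-17oe minus N2 and 4 in flp-17oe egl-6(lof) minus egl-6(lof).

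Animals with the flp-17 array differed from N2 in 3 insulin-like genes. The genes ins-19 and ins-22 were higher and ins-34 was lower, and the other 21 tested members did not pass. The 3 genes were 12.5% of the members tested, beside 6.75% of all genes (1001 of 14830), with 4.9% of all genes higher and 1.85% lower. The members' median log2 change was 0.09, beside 0.02 over all genes, and 18 of 24 lay within 0.5 of 0.

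The gene ins-34, the second most abundant member per length, stood at 2.20, 2.03, 2.22, 2.76 and 2.21 CPM in flp-17oe replicates 1 to 5, against 3.12, 3.16, 2.92, 3.37 and 3.04 CPM in N2. All 5 array libraries lay below all 5 N2 libraries, and replicate 4 was the closest to them. Its level was 0.730 of that in N2 (log2 change -0.45, SE 0.11, edgeR adjusted p 0.0122), and the call was lost without replicate 2 or without replicate 3 (adjusted p up to 0.0614). In the other genotypes ins-34 had 2.55, 2.17, 2.66, 2.80 and 2.15 CPM in flp-17oe egl-6(lof), 3.01, 3.34, 3.03, 3.07 and 2.25 CPM in egl-6(lof), and 3.22, 2.76, 2.53, 2.49 and 2.89 CPM in flp-17(lof). The array libraries in the egl-6(lof) background overlapped those of egl-6(lof) through replicate 5 of egl-6(lof) (log2 change -0.26, SE 0.11, edgeR adjusted p 0.134; 0.0295 without egl-6(lof) replicate 5). An exon stretch of 82 of the 507 exon bases of ins-34 overlaps nkcc-1 on the opposite strand, and the strand setting of the counting is not given in the sources used here. The gene nkcc-1 averaged 130 ± 11.4 CPM in flp-17oe and 126 ± 17.2 in N2.

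Groups failed to overlap in flp-17oe against N2 for 2 members, beside 8.41% of all genes. The other one, ins-32, was higher at 0.169 to 0.287 CPM in flp-17oe than in N2 at 0.0613 to 0.165 CPM, but missed the threshold (log2 change 1.04, SE 0.42, edgeR adjusted p 0.154). It falls outside the rule for genes given in full and was chosen after its values were seen.

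The gene ins-22 stood at 0.577, 0.551, 0.509, 0.463 and 0.601 CPM in flp-17oe and at the N2 values given above. All 5 flp-17oe libraries lay above 4 of the 5 N2 libraries, and N2 replicate 1 fell within their range. The level was 1.71 times that of N2 (log2 change 0.77, SE 0.23, edgeR adjusted p 0.0385). Leaving out single libraries or replicate numbers ended this call in 12 of 30 refits, with adjusted p up to 0.251, as did leaving out the batch term (0.0907). In flp-17oe egl-6(lof), ins-22 had 0.585, 0.654, 0.563, 0.469 and 0.423 CPM, which overlapped egl-6(lof) throughout (log2 change 0.10, SE 0.22, edgeR adjusted p 0.867). In flp-17(lof) it had 0.600, 0.348, 0.267, 0.255 and 0.313 CPM.

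The gene ins-19 was nearly silent without the array. It had 0, 11, 9, 21 and 25 counts in flp-17oe replicates 1 to 5, against 0, 3, 0, 1 and 0 counts in N2. In flp-17oe egl-6(lof) it had 1, 8, 5, 18 and 30 counts, against 0, 4, 0, 4 and 4 in egl-6(lof). All array libraries of batch 2 were above every library without the array, while the array libraries of batch 1 had 0 and 1 counts.

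Summed over libraries, ins-19 had 66 counts in flp-17oe and 4 in N2, for a fitted level 15.4 times that of N2 (log2 change 3.95, SE 0.68, edgeR adjusted p 0.000675), and counting error alone gave the depth-scaled ratio a 95% interval of 6.05 to 61.3. It was 5.65 times as high in flp-17oe egl-6(lof) as in egl-6(lof) (3.02 to 11.5; log2 change 2.54, SE 0.57, adjusted p 0.0033). The 5 libraries that brought ins-19 past the count minimum all carried the array, so it could be tested only because it was high there. In 8 of 30 refits with a library or replicate number left out it fell below that minimum and was not tested, and in the other 22 it kept both calls. Without a count minimum its adjusted p was 0.000928 and 0.00528, and without the batch term the change against egl-6(lof) missed the threshold (0.0595). In flp-17(lof) it had 0, 0, 1, 1 and 1 counts.

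Markers of late embryonic and larval cuticle moved with ins-19. All 15 listed cuticle and molting genes, such as the collagen genes dpy-7 and rol-6, were above 0 in every genotype. Of these, 14 rose in flp-17oe against N2, beside 4.9% of all genes, and 15 in flp-17oe egl-6(lof) against egl-6(lof), beside 5.7%. Their summed level ran from 35.8 to 256 CPM in flp-17oe egl-6(lof), 28.9 to 137 in flp-17oe, 26.6 to 40.3 in egl-6(lof), 16.6 to 22.8 CPM in flp-17(lof) and 20.9 to 27.5 in N2. The 8 array libraries of batch 2 held both the 8 highest sums, from 54.7 CPM upwards, and the 8 highest ins-19 values. The array libraries of batch 1 were low in both. The part of these transcripts in the change of ins-19 was not tested.

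**Figure D3:**
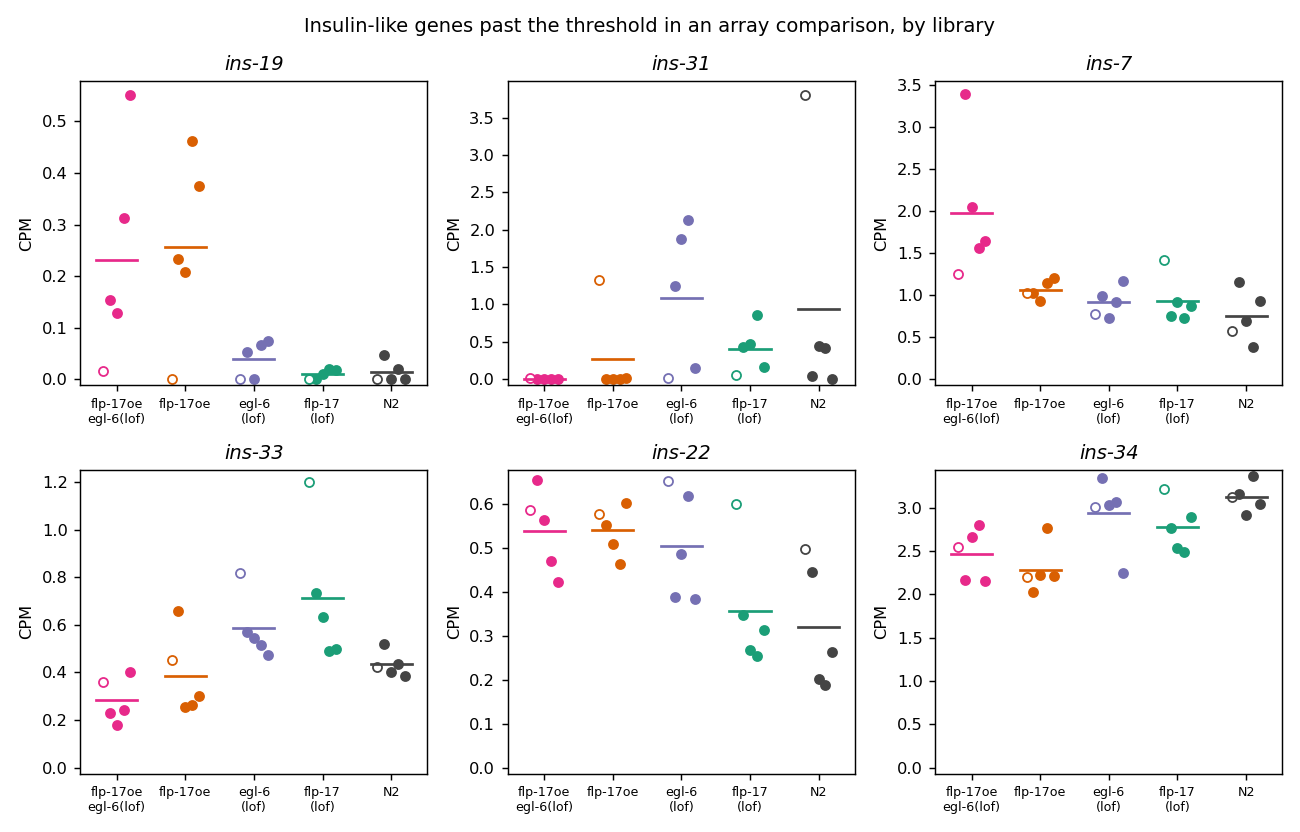
Level in CPM of the 6 insulin-like genes called in a comparison, by genotype; each point is a library, open for batch 1 and filled for batch 2, and each bar is the mean of 5 libraries. All flp-17oe points lie below all N2 points for ins-34; for ins-7 the flp-17oe egl-6(lof) points lie above those of flp-17oe and egl-6(lof).

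Adding the array in egl-6(lof) animals gave 4 called members. The genes ins-7 and ins-19 were higher and ins-31 and ins-33 were lower, and the other 20 tested members did not pass. The 4 genes were 16.7% of the members tested, beside 14.5% of all genes (2150), with 5.7% of all genes higher and 8.8% lower, so the share of members was near that of all genes. Their median log2 change was 0.03, beside 0.01 over all genes. This comparison and that of flp-17oe with N2 share no library.

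The agonist gene ins-7, which in C. elegans is made in neurons and intestine and is among the genes that DAF-16 holds down, had its highest levels in flp-17oe egl-6(lof). There it stood at 1.25, 3.40, 2.05, 1.56 and 1.65 CPM in replicates 1 to 5, against 0.781, 0.985, 0.728, 0.917 and 1.17 CPM in egl-6(lof) and 1.03, 1.02, 0.925, 1.15 and 1.20 CPM in flp-17oe. Every flp-17oe egl-6(lof) library lay above every library of both other genotypes, and replicate 2 was the highest. In flp-17(lof) it had 1.42, 0.746, 0.918, 0.725 and 0.867 CPM, against 0.567, 1.16, 0.696, 0.379 and 0.927 CPM in N2, and these ranges overlapped.

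In flp-17oe egl-6(lof), ins-7 was 2.14 times as high as in egl-6(lof) (log2 change 1.10, SE 0.26, edgeR adjusted p 0.00408). The refit without replicate 3 gave an adjusted p of 0.0514. Against flp-17oe it was 1.84 times as high but missed the threshold (log2 change 0.88, SE 0.25, edgeR adjusted p 0.105). DESeq2 gave that comparison an adjusted p of 0.0321, and the batch 2 libraries alone gave an edgeR adjusted p of 0.0414. In flp-17oe against N2 the log2 change of ins-7 was 0.50 (SE 0.27, adjusted p 0.289), and the difference between the 2 array effects, the interaction, was 0.59 (SE 0.37, adjusted p 0.837). The summed level of 8 neuronal markers was 227 to 255 CPM in flp-17oe egl-6(lof), against 237 to 257 in flp-17oe and 212 to 232 in egl-6(lof), and that of 7 intestinal markers was 24400 to 30600, against 27400 to 31300 and 23800 to 28900 CPM. The part of these tissues in the level of ins-7 was not tested.

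The gene ins-33 stood at 0.360, 0.231, 0.179, 0.243 and 0.404 CPM in flp-17oe egl-6(lof), against 0.818, 0.570, 0.546, 0.517 and 0.475 CPM in egl-6(lof). All 5 array libraries lay below all 5 libraries of egl-6(lof). Its level was 0.493 of that in egl-6(lof) (log2 change -1.02, SE 0.25, edgeR adjusted p 0.00578; 0.0558 without replicate 3). In flp-17oe it had 0.452, 0.657, 0.254, 0.265 and 0.300 CPM, which overlapped N2 (log2 change -0.20, SE 0.25, adjusted p 0.655). The interaction for ins-33 was -0.82 (SE 0.35, adjusted p 0.587).

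The gene ins-31 had 1, 0, 0, 0 and 0 counts in flp-17oe egl-6(lof) replicates 1 to 5, against 1, 96, 93, 128 and 8 in egl-6(lof). The ranges in CPM did not overlap, but replicate 1 held 1 count in both genotypes, which is 0.0150 against 0.0186 CPM. Over all libraries 1 count stood against 326, a ratio of 0.00336 of the level in egl-6(lof) (95% interval 8.47e-05 to 0.0188, counting error only). The fitted log2 change of -8.69 (SE 1.94, edgeR adjusted p 0.00294) depends on the handling of zeros and gives no bound. Of the members whose groups did not overlap in this comparison, ins-7, ins-31 and ins-33 were all 3, beside 7.96% of all genes.

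Elsewhere ins-31 varied widely between samples of a genotype. It had 85, 0, 0, 0 and 1 counts in flp-17oe, 1, 35, 47, 44 and 9 in flp-17(lof), and 161, 3, 20, 22 and 0 in N2. In CPM these were 1.33, 0, 0, 0 and 0.0150 in flp-17oe, 0.0546, 0.435, 0.464, 0.862 and 0.166 in flp-17(lof), and 3.80, 0.0460, 0.449, 0.417 and 0 in N2. Replicate 1 was the highest in flp-17oe and N2 and the lowest in flp-17(lof) and egl-6(lof), and neither flp-17oe (log2 change -1.85, SE 1.11, edgeR adjusted p 0.353) nor egl-6(lof) (1.70, SE 1.04, adjusted p 0.89) differed from N2 past the threshold.

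Sperm markers moved in part with ins-31. All 11 listed sperm genes, such as the major sperm protein gene msp-31, were above 0 in every genotype. Of these, 9 fell in flp-17oe egl-6(lof) against egl-6(lof), beside 8.8% of all genes lower. In egl-6(lof) against N2 6 rose, beside 0.573% of all genes called, and none passed in flp-17oe against N2. Their summed level ran from 10.9 to 31.8 CPM in flp-17oe egl-6(lof), 8.71 to 32.9 in flp-17oe, 34.9 to 72.9 in egl-6(lof), 14.7 to 25.0 CPM in flp-17(lof) and 8.55 to 67.4 in N2. The 4 libraries with the highest sums, from 60.1 CPM upwards, all had over 90 counts of ins-31. Of the next 4, at 31.8 to 38.1 CPM, flp-17oe replicate 1 had 85 counts and the others 1 to 8. Over all libraries the sums overlapped. They ran from 12.4 to 72.9 CPM in the 10 libraries with at least 20 counts of ins-31, and from 8.55 to 38.1 CPM in the 15 with fewer. The part of sperm transcripts in the level of ins-31 was not tested.

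**Figure D4:**
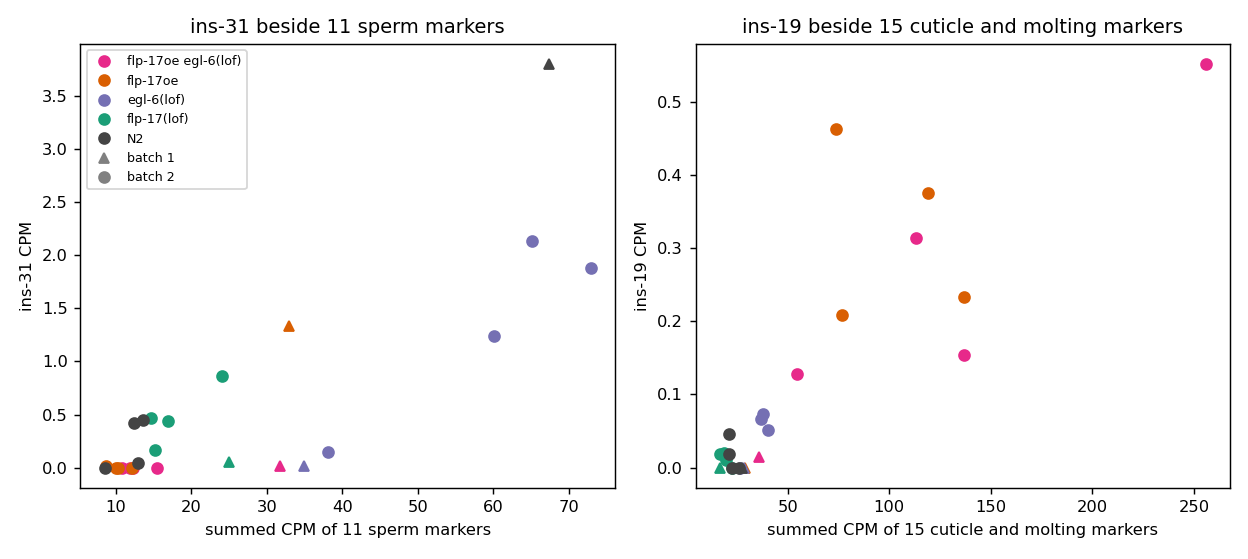
Level of ins-31 against the summed level of 11 sperm markers (left) and of ins-19 against that of 15 cuticle and molting markers (right), in CPM; each point is a library, a triangle for batch 1 and a circle for batch 2. The batch 2 libraries with the array lie at the right for cuticle and ins-19 and at the bottom left for sperm and ins-31.

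Within batch 2 alone, the array comparison with N2 gave the same 3 members, ins-19, ins-22 and ins-34, beside 7.6% of all genes. Adding the array in egl-6(lof) gave 6 members in batch 2, which were the 4 above together with ins-27 and ins-37, beside 15.8% of all genes. Batch 1 held 1 library of each genotype and allowed no test. In it, ins-34 had 2.20 CPM in flp-17oe and 3.12 in N2, and ins-22 had 0.577 in flp-17oe and 0.496 in N2. The gene ins-7 had 1.25 CPM in flp-17oe egl-6(lof) and 0.781 in egl-6(lof), and ins-33 had 0.360 in flp-17oe egl-6(lof) and 0.818 in egl-6(lof). These 4 differences had the direction of batch 2, whereas ins-19 and ins-31 held at most 1 count in both batch 1 libraries of their called comparisons. The genes were picked from the fit of both batches, so neither batch is a separate check of them.

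Loss of egl-6 in animals with the array called no insulin-like gene in edgeR. With flp-17oe egl-6(lof) set against flp-17oe, 0 of 24 members passed, beside 168 of all genes (1.13%), while DESeq2 called ins-7 alone. In edgeR 5 members had an unadjusted p under 0.05, beside 10.9% of all genes. The groups did not overlap for ins-7, beside 2.27% of all genes. Neither ins-19 (log2 change -0.08, SE 0.48, edgeR adjusted p 0.964) nor ins-22 (-0.01, SE 0.22, adjusted p 0.989) nor ins-34 (0.11, SE 0.11, adjusted p 0.711), the genes called in flp-17oe against N2, differed past the threshold. The interval of the difference was -1.08 to 0.93 for ins-19, -0.46 to 0.44 for ins-22 and -0.12 to 0.34 for ins-34 on the log2 scale, so only ins-34 was measured closely. The median over members was -0.04, beside -0.02 over all genes.

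The test of whether the array effect differed between egl-6 backgrounds called 0 of 24 members in edgeR and in DESeq2, beside 13 of all genes in edgeR (0.0877%), and 4 members had an unadjusted p under 0.05, beside 7.37% of all genes. Those 4 were ins-31 (log2 difference -6.85, SE 2.53, adjusted p 0.475), ins-27 (-0.54, SE 0.23, 0.572), ins-33 (-0.82, SE 0.35, 0.587) and ins-22 (-0.67, SE 0.31, 0.639). The value for ins-31 depends on the handling of zeros. The genes ins-19 (log2 difference -1.41, SE 0.96, adjusted p 0.885) and ins-34 (0.20, SE 0.15, adjusted p 0.932) did not pass either. None of the array effects on members was thus shown to depend on egl-6.

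The agonist gene daf-28, which is known from the ASI and ASJ sensory neurons and holds back dauer formation, was close between genotypes. It had 2.61, 2.10, 1.84, 2.71 and 2.08 CPM in flp-17oe egl-6(lof), 2.50, 2.14, 3.40, 2.96 and 2.87 in flp-17oe, and 3.07, 2.42, 2.29, 2.82 and 2.12 in egl-6(lof). In flp-17(lof) it had 2.62, 2.67, 3.20, 2.86 and 3.37 CPM, against 2.34, 2.79, 2.65, 2.67 and 3.10 CPM in N2. All 5 genotypes overlapped. The log2 change against N2 was 0.03 (95% interval -0.25 to 0.31) in flp-17oe, -0.09 (-0.37 to 0.19) in egl-6(lof) and 0.13 (-0.15 to 0.41) in flp-17(lof). Against flp-17oe, the level in flp-17oe egl-6(lof) was 0.822 (log2 change -0.28, SE 0.13, edgeR adjusted p 0.452). The summed level of 6 markers of ASI and ASJ was 4.19 to 7.02 CPM in flp-17oe egl-6(lof) and 5.27 to 7.41 in flp-17oe, against 3.51 to 5.11 in egl-6(lof) and 3.93 to 4.59 in N2. The ASI marker str-3 was at 0 in both array genotypes. Of the 3 tested markers 1 rose in flp-17oe against N2, beside 4.9% of all genes higher. Their part in the level of daf-28 was not tested.

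The agonist genes ins-6 and ins-4, of the same cluster on chromosome II, also did not pass in any of the 6 comparisons. The gene ins-6 had 1.70, 1.40, 1.10, 1.16 and 1.03 CPM in flp-17oe egl-6(lof), 1.37, 1.21, 1.5, 0.927 and 1.23 in flp-17oe, 1.82, 1.23, 1.62, 1.53 and 0.968 in egl-6(lof), 2.67, 1.04, 1.31, 1.37 and 1.27 in flp-17(lof), and 1.02, 2.08, 1.17, 0.947 and 1.15 in N2. Its highest value was in the flp-17(lof) library that stood apart, and all genotypes overlapped, with log2 changes between -0.16 and 0.16.

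The gene ins-4 had 0.420, 0.538, 0.384, 0.487 and 0.386 CPM in flp-17oe egl-6(lof), 0.515, 0.381, 0.370, 0.486 and 0.706 in flp-17oe, 0.502, 0.700, 0.647, 0.867 and 0.256 in egl-6(lof), 1.15, 0.485, 0.573, 0.568 and 0.608 in flp-17(lof), and 0.496, 0.567, 0.561, 0.512 and 0.437 in N2. The genotypes overlapped here too, and the change furthest from 0 was -0.43 (SE 0.26, edgeR adjusted p 0.338) in flp-17oe egl-6(lof) against egl-6(lof).

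Among the antagonists, ins-1 encodes the worm peptide closest to human insulin. It had 0.360, 0.481, 0.358, 0.661 and 0.625 CPM in flp-17oe egl-6(lof), 0.562, 0.614, 0.855, 0.618 and 0.766 in flp-17oe, 0.483, 0.518, 0.445, 0.484 and 0.329 in egl-6(lof), 0.218, 0.584, 0.513, 0.372 and 0.387 in flp-17(lof), and 0.756, 0.736, 0.337, 0.587 and 0.525 in N2. The flp-17oe libraries lay above all egl-6(lof) libraries. No comparison sets this pair together, and it differs in both the array and egl-6. It was picked out after its values were seen, and the share of all genes for it was not computed. Against N2, ins-1 in flp-17oe lay within or above the range of the N2 libraries (log2 change 0.20, SE 0.23, edgeR adjusted p 0.62). Its change furthest from 0 was -0.45 in flp-17oe egl-6(lof) over flp-17oe (SE 0.23, adjusted p 0.491), and it was also -0.45 in flp-17(lof) against N2 (SE 0.24, adjusted p 1) and -0.38 in egl-6(lof) against N2 (SE 0.23, adjusted p 0.894).

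The gene ins-18 had 1.04, 0.846, 0.844, 0.782 and 0.808 CPM in flp-17oe egl-6(lof), 0.640, 1.25, 0.809, 0.971 and 0.676 in flp-17oe, 0.855, 0.881, 0.870, 0.817 and 0.767 in egl-6(lof), 2.78, 0.733, 0.602, 0.666 and 0.885 in flp-17(lof), and 1.04, 1.32, 0.651, 0.663 and 0.927 in N2. Apart from the single high value in flp-17(lof) replicate 1 the genotypes overlapped, and its log2 changes lay between -0.14 and 0.11.

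The most abundant member, ins-17, which has been described as favouring dauer formation, had 5.12, 4.19, 4.09, 4.26 and 4.57 CPM in flp-17oe egl-6(lof), 4.01, 5.95, 4.14, 4.46 and 4.23 in flp-17oe, 4.74, 3.73, 4.31, 4.27 and 3.27 in egl-6(lof), 5.08, 3.80, 4.22, 3.55 and 3.89 in flp-17(lof), and 4.18, 4.40, 3.28, 3.43 and 3.90 in N2. Its ranges overlapped, and the log2 change of 0.25 (SE 0.12) in flp-17oe against N2 had an edgeR adjusted p of 0.22.

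The other 2 of the 6 most abundant members lie in the cluster on chromosome I. The gene ins-27 had 1.67, 1.02, 0.946, 1.58 and 1.25 CPM in flp-17oe egl-6(lof), 1.5, 1.84, 1.69, 1.92 and 1.94 in flp-17oe, 1.56, 1.68, 2.06, 1.75 and 1.55 in egl-6(lof), 1.91, 1.37, 1.91, 1.27 and 1.60 in flp-17(lof), and 1.39, 2.07, 1.37, 1.46 and 1.71 in N2. In flp-17oe egl-6(lof), replicates 2, 3 and 5 lay below every library of flp-17oe and egl-6(lof), whereas replicates 1 and 4 fell among them (log2 change -0.45, SE 0.16, edgeR adjusted p 0.252 against flp-17oe; -0.40, SE 0.16, adjusted p 0.111 against egl-6(lof)). The change against egl-6(lof) passed in the refits without replicate 1 of all genotypes and without replicate 1 of flp-17oe egl-6(lof), with an adjusted p down to 0.0308.

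The gene ins-26 had 1.40, 1.02, 1.38, 1.3 and 1.10 CPM in flp-17oe egl-6(lof), 0.967, 1.76, 1.60, 1.13 and 1.23 in flp-17oe, 0.836, 1.17, 1.36, 1.3 and 1.48 in egl-6(lof), 1.26, 1.02, 1.31, 1.14 and 1.27 in flp-17(lof), and 1.25, 1.62, 1.12, 1.00 and 0.945 in N2. All genotypes overlapped, with log2 changes between -0.12 and 0.15.

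Neighbouring members did not all share a direction. In the cluster of 7 on chromosome I, the 6 tested genes had log2 changes from -0.31 to 0.30 in flp-17oe against N2 and from -0.45 to 0.36 in flp-17oe egl-6(lof) against egl-6(lof). The neighbours ins-19 and ins-31 differed in sign in both, at 3.95 and -1.85 and at 2.54 and -8.69. The neighbours ins-22 and ins-23 were at 0.77 and 0.43 in flp-17oe against N2 and at 0.10 and 1.04 (SE 0.39, edgeR adjusted p 0.0817 for ins-23) in egl-6(lof) animals with the array against those without.

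The genes that make and read the peptides were described from 4 lists, chosen with earlier results of these data known. Of 10 genes for peptide processing and release, all tested, 2 rose and none fell in flp-17oe against N2, beside 6.75% of all genes called. In flp-17oe egl-6(lof) against egl-6(lof) 1 rose and none fell, beside 14.5% of all genes called. Their median log2 changes were 0.22 and 0.15, beside 0.02 and 0.01 over all genes. Of the 8 neuronal markers 1 rose and none fell in each of these comparisons, with median log2 changes of 0.29 and 0.15. The gene egl-21 is on both lists, so they are not separate. The part of neurons in the levels of the processing genes was not tested. The proprotein convertase gene aex-5 stood at 18.9 to 23.6 CPM in flp-17oe egl-6(lof) and 17.1 to 20.7 CPM in flp-17oe, against 11.9 to 13.1 CPM in egl-6(lof) and 10.6 to 13.3 CPM in N2. Its lowest array library, at 17.1 CPM, was above the highest egl-6(lof) or N2 library, at 13.3 CPM. It rose by a log2 change of 0.63 (SE 0.09, edgeR adjusted p 5.62e-05) in flp-17oe against N2 and of 0.68 (SE 0.09, adjusted p 1.78e-05) in flp-17oe egl-6(lof) against egl-6(lof). The gene egl-3, for the convertase that cleaves many neuropeptide precursors, rose by 0.40 (SE 0.09, adjusted p 0.0092) in flp-17oe against N2, at 47.2 to 54.8 CPM in flp-17oe and 37.4 to 42.2 CPM in N2.

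Of 13 genes for the receptor and its kinase cascade, all tested, 1 passed in any comparison. This was pdk-1, for the kinase that activates AKT, at 18.4 ± 1.66 CPM in flp-17oe egl-6(lof) and 15.6 ± 0.943 in egl-6(lof) (log2 change 0.24, SE 0.06, edgeR adjusted p 0.00394), beside 14.5% of all genes called. The receptor gene daf-2 averaged 141 ± 39.5 CPM in flp-17oe egl-6(lof), 161 ± 21.1 in flp-17oe, 125 ± 14.6 in egl-6(lof), 128 ± 23.6 in flp-17(lof) and 130 ± 33 in N2, and passed in no comparison. The gene daf-16 ran from 93.0 to 141 CPM in flp-17oe egl-6(lof), 107 to 163 in flp-17oe, 101 to 132 in egl-6(lof), 79.3 to 134 CPM in flp-17(lof) and 83.0 to 133 in N2, and did not pass either. The genotypes overlapped for both.

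Several genes known to fall when DAF-2 signalling is reduced rose in array animals, whereas DAF-16-raised genes were mixed. Of 11 tested genes of the first list (13 listed), 6 rose and 1 fell in flp-17oe against N2. Beside them, 4.9% of all genes were higher and 1.85% lower. The median log2 change of the list was 0.69, beside 0.02 over all genes. In flp-17oe egl-6(lof) against egl-6(lof) 4 rose and none fell, beside 5.7% of all genes higher and 8.8% lower. The median there was 0.39, beside 0.01. No gene of either list passed in flp-17(lof) or egl-6(lof) against N2.

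The CUB-domain gene dod-22 had 1.67, 2.77, 2.94, 4.21 and 4.52 CPM in flp-17oe egl-6(lof), 1.40, 2.94, 2.29, 3.49 and 3.80 in flp-17oe, 0.725, 0.894, 0.971, 1.02 and 0.822 in egl-6(lof), and 1.04, 0.506, 0.314, 0.208 and 0.472 in N2. Each array library lay above all egl-6(lof) and N2 libraries, with batch 1 the lowest of each array genotype. Its log2 change was 2.46 (SE 0.36, edgeR adjusted p 9.97e-05) in flp-17oe against N2 and 1.85 (SE 0.33, adjusted p 0.000514) in flp-17oe egl-6(lof) against egl-6(lof).

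The gene dod-19 was at 98.7 to 141 CPM in flp-17oe egl-6(lof) and 93.2 to 113 CPM in flp-17oe, against 55.0 to 61.6 in egl-6(lof) and 54.1 to 60.4 in N2 (log2 change 0.97, SE 0.08, edgeR adjusted p 2.77e-08 against egl-6(lof); 0.92, SE 0.08, adjusted p 5.11e-08 against N2). The gene dod-23 rose in flp-17oe egl-6(lof) against egl-6(lof) (log2 change 0.79, SE 0.12, adjusted p 9.13e-05) and against flp-17oe (0.52, SE 0.12, adjusted p 0.0221), but did not pass in flp-17oe against N2. The DNase gene nuc-1 fell by 0.40 (SE 0.07, adjusted p 0.000469) in flp-17oe against N2.

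Of 17 tested DAF-16-raised genes (21 listed), 1 rose and 3 fell in flp-17oe against N2, beside 6.75% of all genes called, and 1 rose and 4 fell in flp-17oe egl-6(lof) against egl-6(lof), beside 14.5%. Their median log2 changes were 0.00 and 0.19, beside 0.02 and 0.01 over all genes. The superoxide dismutase gene sod-3 had 1.47, 0.981, 1.3, 0.8 and 0.643 CPM in flp-17oe egl-6(lof) and 1.12, 0.741, 0.647, 0.750 and 0.811 in flp-17oe, against 1.52, 2.02, 2.55, 1.5 and 1.28 in egl-6(lof) and 1.58, 1.85, 1.48, 1.61 and 1.73 in N2. All flp-17oe libraries lay below all N2 libraries, while flp-17oe egl-6(lof) and egl-6(lof) overlapped. The log2 change of sod-3 was -1.03 (SE 0.20, edgeR adjusted p 0.00198) in the first comparison and -0.79 (SE 0.19, adjusted p 0.00587) in the second. The gene aqp-1 also fell in both, by -0.28 (SE 0.08, adjusted p 0.0374) and -0.49 (SE 0.08, adjusted p 0.000295). So did ctl-2, by -0.19 (SE 0.05, edgeR adjusted p 0.0148) and -0.14 (SE 0.05, adjusted p 0.0376). In the first, old-1 rose (0.73, SE 0.18, adjusted p 0.017). In the second, hsp-12.3 fell (-0.64, SE 0.20, adjusted p 0.0345).

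The metallothionein gene mtl-1, by contrast, was higher in flp-17oe egl-6(lof). It had 0.450, 1.73, 2.02, 0.921 and 1.21 CPM in flp-17oe egl-6(lof), 0.250, 0.360, 0.208, 0.640 and 0.435 in flp-17oe, and 0.316, 0.570, 0.546, 0.700 and 0.566 in egl-6(lof). The batch 2 libraries of flp-17oe egl-6(lof) were above all libraries of the other genotypes, and its batch 1 library was not. It rose against flp-17oe (log2 change 1.66, SE 0.27, edgeR adjusted p 0.00237) and against egl-6(lof) (1.17, SE 0.26, adjusted p 0.00277). Body wall muscle markers fell in both comparisons of array with non-array animals. In flp-17oe against N2 5 of 7 fell, beside 1.85% of all genes lower. In flp-17oe egl-6(lof) against egl-6(lof) 6 of 7 fell, beside 8.8%. Their summed levels were 2110 to 2990 CPM in flp-17oe egl-6(lof), 2780 to 3230 in flp-17oe, 3720 to 4830 in egl-6(lof) and 3610 to 4570 in N2. Their part in the changes above, and that of the cuticle markers, was not tested.

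**Figure D5:**
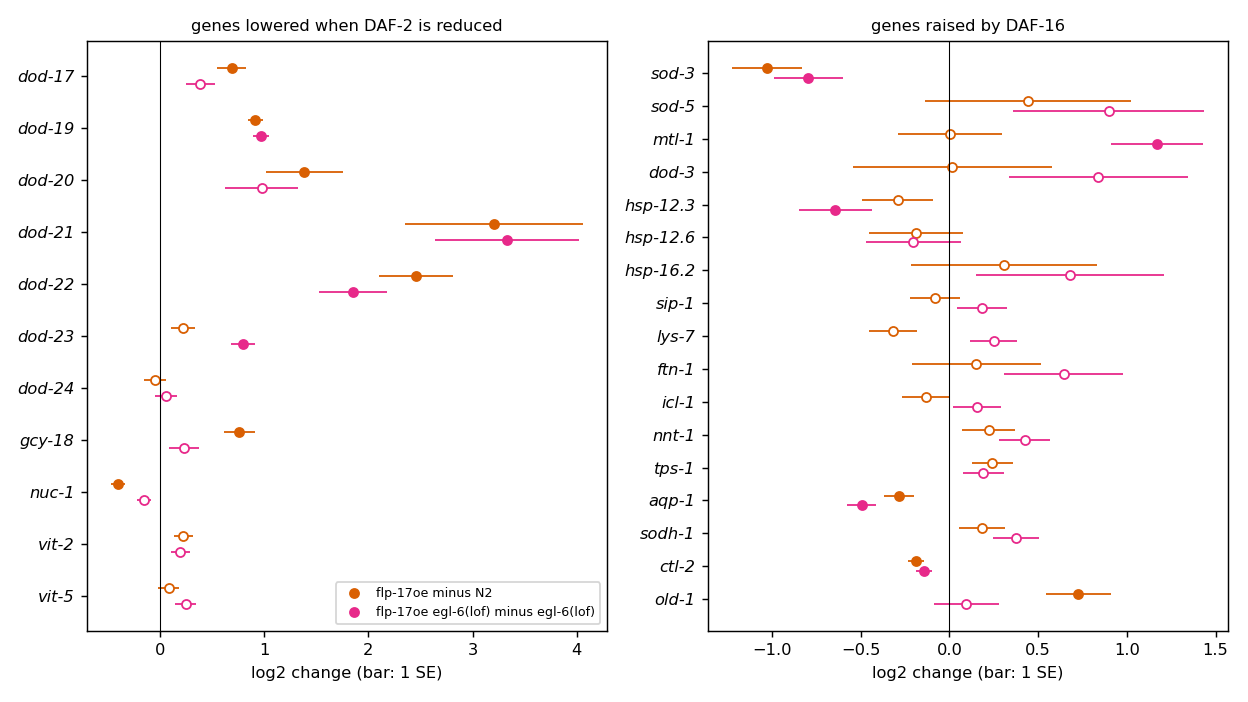
Log2 changes with 1 SE of genes known to fall when DAF-2 is reduced (left, 11 tested) and of genes raised by DAF-16 (right, 17 tested), in flp-17oe minus N2 and flp-17oe egl-6(lof) minus egl-6(lof); filled points have an edgeR adjusted p under 0.05. The dod genes lie mostly to the right of 0, with dod-22 at 2.46 and 1.85, and sod-3 lies to the left in both comparisons.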

How the data were processed

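The deposited table holds the authors' raw counts per gene and library, not normalized, as its whole numbers and the labels show. Reads were aligned with STAR 2.7.11b to ce11, per the submitters' processing notes. How reads were assigned to genes (program, annotation, strand) is not given in the sources used here, and overlapping or antisense genes cannot be told apart. Columns were matched to samples by name. No library was left out. None duplicated another of its own genotype (lowest chi-square per gene 5.68), and pairs across genotypes were not compared.

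Genes with at least 10 counts in at least 5 libraries were tested. Counts were scaled by TMM factors and fitted in 1 model with genotype and batch over the 25 libraries by the robust quasi-likelihood test of edgeR 4.0.16, with limma 3.58.1 in R 4.3.3. P-values were Benjamini-Hochberg adjusted over the 14830 genes tested, and an adjusted p under 0.05 counts as called. Members with values for every library were those called in any comparison, 6 well-studied genes and the 6 highest per kb of exon. From the other lists up to 4 called genes per comparison, daf-2 and daf-16 are named. Beyond that limit, ctl-2 is given in both array comparisons because it passed in both. The members, the lists and these rules were chosen with earlier results of these data known.

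Alternatives were DESeq2 size factors within edgeR, DESeq2 1.42.0, no count minimum, filterByExpr, no batch term, a replicate block, a fit of the compared genotypes alone, and leaving out each replicate number or library. Same-numbered libraries deviated from their genotype means together in all 5 pairs in flp-17oe against N2 (correlations 0.219 to 0.646). The same held in flp-17oe egl-6(lof) over flp-17oe (0.153 to 0.426) and over egl-6(lof) (0.11 to 0.29). It did not hold in flp-17(lof) against N2 (-0.337 to 0.531) or egl-6(lof) against N2 (-0.359 to 0.48). Batch was not removed from these deviations and differently numbered libraries were not compared. Whether the numbers pair samples beyond batch was therefore not tested. No sequence is shown.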

Additional observations from a re-analysis of the deposited data

Results flagged for a closer look

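Among 70 groups of 5 libraries of the named genes, 13 held a library far from the other 4 of its genotype. The cutoff flags about 1 in 20 groups of normally distributed values. Low counts are not so distributed, so that share is not the chance rate here. Of the 13, 10 were replicate 1, and 5 of these were flp-17(lof) replicate 1, the library with the fewest counts. That library had 1.15 CPM of ins-4 (others 0.485 to 0.608), 2.67 of ins-6 (1.04 to 1.37), 1.42 of ins-7 (0.725 to 0.918), 2.78 of ins-18 (0.602 to 0.885) and 0.600 of ins-22 (0.255 to 0.348). No member was called in flp-17(lof) against N2 with or without it. The gene ins-31 stood out in replicate 1 of 3 genotypes, at 0.0150 CPM in flp-17oe egl-6(lof) (others 0), 1.33 in flp-17oe (0 to 0.0150) and 3.80 in N2 (0 to 0.449). The first of these is 1 count. Replicate 1 also stood out for ins-18 in flp-17oe egl-6(lof), at 1.04 CPM (0.782 to 0.846), and for ins-33 in egl-6(lof), at 0.818 CPM (0.475 to 0.570). In batch 2, ins-34 had 2.76 CPM in flp-17oe replicate 4 (2.03 to 2.22), ins-17 had 5.95 CPM in flp-17oe replicate 2 (4.01 to 4.46), and ins-6 had 2.08 CPM in N2 replicate 2 (0.947 to 1.17). What set these libraries apart was not tested.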

How the results depend on the processing

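No called change of a named gene reversed under any alternative run. The counts of called members were 3 in flp-17oe against N2, 0 in flp-17oe egl-6(lof) over flp-17oe, and 4 for the same strain over egl-6(lof). DESeq2 gave 1, ins-7, in the second. Fitting only the compared genotypes gave 1, ins-34, in the first and 2, ins-7 and ins-33, in the third, where ins-19 and ins-31 no longer reached the count minimum. Leaving out replicate numbers or libraries gave 1 to 3, 0 to 1 and 2 to 6 members, and 0 to 0 in each of the other 3 comparisons. The replicate block changed no member's call. Of the pathway genes, 3 were called in flp-17oe egl-6(lof) over flp-17oe and 1 without the batch term, and the cause was not tested. The 6 highest members per kb were the same under plain total counts and 5 of them under mean transcript length. Without the batch term ins-19 had an adjusted p of 0.0595 in flp-17oe egl-6(lof) against egl-6(lof). Without a count minimum ins-22 had 0.0682 in flp-17oe against N2, and with the compared genotypes alone 0.0929. The gene ins-34 reached 0.0614 when replicate 2 or 3 was left out of flp-17oe against N2. Over all genes, egl-6(lof) against N2 called 85 genes but 355 with DESeq2, 48 without a count minimum, 33 without the batch term, 39 with the compared genotypes alone and 17 to 654 with libraries left out. In flp-17oe against N2 the 1001 became 1422 with DESeq2 (843 higher and 579 lower, against 726 and 275) and 404 to 1410 with libraries left out. In flp-17oe egl-6(lof) over flp-17oe 168 became 350 with DESeq2 and 17 to 325 with libraries left out, and over egl-6(lof) 2150 became 1297 to 2428. The interaction called 13, and 36 with DESeq2, 6 without the batch term, 8 with the compared genotypes alone and 2 to 163 with libraries left out. Members took 577 to 2324 counts per library, so small changes of the low members were not detectable.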

Other observations

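The gene ins-35 was too low to test and was picked out after its values were seen. It had 10, 5, 11, 10 and 8 counts in flp-17oe egl-6(lof), 1, 3, 2, 5 and 8 in flp-17oe, 1, 7, 3, 1 and 8 in egl-6(lof), 0, 2, 2, 5 and 4 in flp-17(lof) and 1, 4, 1, 2 and 2 in N2. In CPM the flp-17oe egl-6(lof) libraries, at 0.0962 to 0.281, lay above those of N2, at 0.0224 to 0.0613, and overlapped those of flp-17oe and egl-6(lof).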
